A study of Oryctolagus cuniculus with 36 samples.

Results

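The wild-type rabbit liver is described here from the 12 RNA sequencing libraries whose titles carry WT, out of 36 libraries in a series on gene editing of hereditary tyrosinemia type I in rabbits (Oryctolagus cuniculus). The titles place the 12 libraries in 3 sets of 4, named WT-L1, WT-L2 and WT-L3, and the counts of each set were summed. The other 24 libraries, titled FA and FK, form 6 further sets of 4, and the labels do not spell out FA or FK. Every sample, the WT ones included, carries the same label of a rabbit disease model, and the protocol speaks of treated rabbits for all of them, so wild type rests on the title alone. Genotype beyond that name, age, sex, strain and feeding are not given in the labels. Nothing ties a set or a library to an animal. The livers were dissociated with trypsin before RNA was taken with TRIzol, and sequencing libraries were prepared with a TruSeq kit.

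The liver is the body's main source of plasma proteins. Hepatocytes, its chief cell type, secrete albumin, clotting factors, complement and lipoproteins, and they also turn ammonia into urea, make glucose and bile acids, and oxidise drugs with cytochrome P450 enzymes. Many of these programmes follow feeding, hormones, the time of day and inflammation, so a baseline is a range more than a single state. Hereditary tyrosinemia type I is the loss of FAH, the enzyme that ends tyrosine breakdown.

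Libraries held 14.2 to 18.7 M counts in WT and 11.7 to 22.5 M in the whole series, and the 3 WT sets summed to 61.0 to 67.4 M. Between 15633 and 16011 of the 23394 genes of the table had a count in a WT library. Levels are given as CPM, the count of a gene after scaling the total of a library or of a summed set to 1000000. A long transcript gives more counts than a short one at the same number of molecules, and transcript lengths were not used here, so an order of genes by CPM is an order of counts. ALB, the hepatocyte marker, stood at 163189 CPM in WT-L1, 210053 in WT-L2 and 200257 in WT-L3, which is the highest value of any gene in each set. FAH had 199 to 265 CPM in the WT sets and 13.9 to 24.2 CPM in the FA and FK sets, so the WT titles and the FAH values do not conflict. Within a set, log2 CPM of 2 libraries correlated across genes at r = 0.989 to 0.994 (median 0.992, 18 pairs), against 0.956 to 0.966 (median 0.962, 48 pairs) between sets. Genes are not independent replicates, and these values describe only how alike the libraries were.

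Secreted plasma proteins led the counts. ALB had 157134 CPM in its lowest library, a median of 198850 and 217972 in its highest, and took 19.1% ± 2.47 of all counts (SD, n = 3 sets). The 4 libraries of WT-L1 were all below those of WT-L2 and WT-L3, whose ranges overlap. The next gene by counts was PIGR, the receptor that carries polymeric immunoglobulin across epithelia and into bile, at 30896, 20488 and 18279 CPM in WT-L1, WT-L2 and WT-L3. Its lowest WT library had 17585 CPM. In the FA sets PIGR stood at 8358 to 12208 CPM and in the FK sets at 14.5 to 8995, values given side by side without a test.

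Of the 20 genes with the highest mean CPM, 13 belong to lists of secreted proteins. Among them the iron carrier TF had 10938, 8560 and 13063 CPM in the sets in order, and the hemoglobin binder HP had 9635, 7673 and 10814. The fibrinogen chains FGB, FGG and FGA had means of 9117, 7442 and 6634 CPM. HPX, which binds heme, had a mean of 7383, the retinol carrier RBP4 one of 7293, and the vitamin D carrier GC one of 7121. HRG, a histidine-rich plasma protein that binds heparin and metals, had 6407 CPM, and SELENOP, which carries selenium, had 6271. APOB, the structural protein of very low density lipoproteins, had 6101, and AHSG, the fetuin-A of plasma, had 5678. Of the genes named in this group HPX had the largest ratio between sets, at 8308, 5258 and 8582 CPM.

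The other genes among these 20 were enzymes, one translation factor and genes with no symbol. CPS1, which starts the urea cycle, had 4770, 5266 and 4593 CPM, and ADH1A, an alcohol dehydrogenase, had 6102, 6301 and 6675. The elongation factor EEF1A1 had a mean of 5249. CYP3A6, the main drug-oxidising CYP3A of the rabbit, differed most between sets among the 20, at 5256, 3180 and 13399 CPM. LOC100342572 had 12954, 11671 and 11094 CPM and LOC100328911 had 3817, 6075 and 3337. Neither has a name beyond its number in RefSeq (assembly mOryCun1.1). There the nearest named neighbours of LOC100342572 are PRAP1, FUOM and ECHS1 on one side and CALY and ZNF511 on the other. LOC100342322, which ranks 38 by counts at 2516, 3141 and 2415 CPM, lies next to SYCE1.

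**Figure D1:**
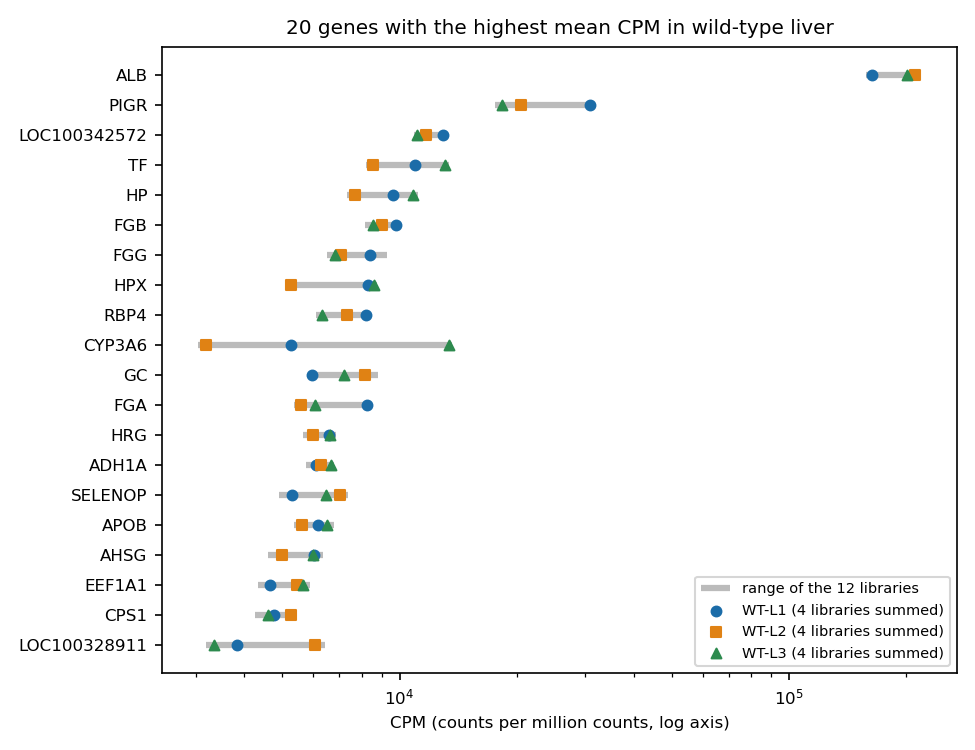
CPM (log axis) of the 20 genes with the highest mean over the 3 wild-type sets. Symbols are the 3 summed sets and grey bars span the 12 libraries; ALB lies between 157134 and 217972 CPM, and CYP3A6 shows the widest gap between sets.

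Few genes made up most of the counts. The top 10 of each set took 28.9% ± 1.56 of its counts, the top 20 34.8% ± 1.60 and the top 100 51.7% ± 1.42 (SD, n = 3 sets). A mean of 87 ± 10.5 genes sufficed for 50% of the counts: 98 in WT-L1, 86 in WT-L2 and 77 in WT-L3. For 90% it took 2931 ± 157 genes. The sets shared 16 of their top 20 and 74 of their top 100 genes. Of the 100 genes with the highest mean, 42 belong to the secreted lists and 17 carry only a LOC number. Those 17 held 4.80% of the counts, and all LOC-only genes together held 9.30% ± 0.272. A mean of 1000 CPM was reached by 122 genes of the whole table, 100 CPM by 1134 and 1 CPM by 11685, and 4685 had no count in any WT library.

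The 6 lists of secreted proteins, with 120 genes in the table, held 35.5% of the counts in WT-L1, 37.8% in WT-L2 and 39.3% in WT-L3. Their 12 libraries ran in the same order without overlap between the sets. Without ALB itself, secreted genes held 19.2%, 16.8% and 19.3%. Albumin and the carriers took 25.0% ± 2.33, clotting and fibrinolysis 4.94% ± 0.424, apolipoproteins and lipoprotein enzymes 2.96% ± 0.0937, complement 2.32% ± 0.376, acute phase proteins and protease inhibitors 2.02% ± 0.366, and plasma hormones with growth factor carriers 0.320% ± 0.0230. Complement was led by C4A (4862, 3385 and 3617 CPM), C3, which all complement pathways cleave (3712, 1727 and 3422), and VTN (3271, 2511 and 2707). The acute phase list was led by AHSG, by CRP (3008, 2724 and 6337 CPM) and by ITIH2, a heavy chain of the inter-alpha inhibitors (1795, 2378 and 2849). Only 17 of 24 symbols of this list and 20 of 26 of the complement list matched a row. Their shares and that of all secreted lists may thus be too low, and unmatched genes could rank above those named. Among the hormones, AGT, the precursor of angiotensin, had 1170, 1002 and 1023 CPM, IGF1 had 673, 874 and 648, and IGFBP4 had 837, 596 and 708. SERPINC1, or antithrombin, had 2920, 3159 and 3682.

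The apolipoproteins were uneven. APOB, APOH and APOE had means of 6101, 4346 and 4317 CPM, and APOA4 had 2145, 2038 and 1843 CPM in the 3 sets. APOA1, the main protein of high density lipoprotein in most mammals, had 28.7, 33.5 and 45.1 CPM, with 25.6 in its lowest library, a median of 33.5 and 48.2 in its highest. Rabbit liver is known for making little APOA1, which comes mostly from the intestine in this species. In the FA sets APOA1 stood at 56.3 to 113 CPM and in the FK sets at 71.5 to 3181. APOA2, the other main protein of these particles in many species, had 77.1, 104 and 110.2 CPM, and hepatic lipase LIPC had 117, 115 and 165. CETP, which moves cholesteryl esters between lipoproteins, had 76.1, 90.3 and 76.4. APOA1, APOA2, LIPC and CETP were chosen after their values were seen.

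Enzymes of drug metabolism held 6.03%, 5.66% and 6.16% of the counts in WT-L1, WT-L2 and WT-L3, of which 3.21% ± 0.338 were cytochrome P450 genes and 2.73% ± 0.0926 conjugating and other enzymes. Only 29 of 38 P450 symbols and 36 of 53 symbols of the other list matched a row. The shares are therefore those of the matched genes and may be too low, and unmatched genes could rank above those named here. Beside CYP3A6, the P450 list was led by LOC100328937, for which RefSeq gives CYP1A2 as another name, and by CYP2C. LOC100328937 had 7463, 3209 and 2524 CPM and CYP2C had 2543, 4148 and 3452. The other list was led by ADH1A, by the carboxylesterase CES1 (4163, 3647 and 4031 CPM) and by the epoxide hydrolase EPHX1 (2702, 2424 and 2100). P450 genes form families of near-identical copies whose shared reads an estimated count divides, so the split between single members is uncertain.

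The other metabolic lists each held less. Amino acid breakdown held 2.12% ± 0.235 of the counts, with HPD, which acts on the product of tyrosine transamination (2568, 2307 and 1985 CPM), and MAT1A (2402, 2174 and 1497). Fatty acid oxidation and ketone bodies held 1.13% ± 0.0811, with HSD17B4 and FABP1 at means of 1016 and 822 CPM. The urea cycle and nitrogen list held 1.06% ± 0.0177, with ASS1 at 1454, 1269 and 1101 CPM and GLUD1 at 1121, 1026 and 1241 after CPS1. Vitamin, cofactor, heme and metal metabolism held 1.07% ± 0.0288, led by the ferritin chains FTH1 and FTL and the glycerol channel AQP9. Lipid and cholesterol synthesis held 1.39%, 0.739% and 1.00%, gluconeogenesis and glycogen 0.767% ± 0.0840, and bile acid synthesis and transport 0.692% ± 0.0705. UGP2 and PCK2 were among the highest of the glucose list, and the bile acid list was led by the uptake carriers SLCO1B3 and SLC10A1 and by CYP7B1. CYP7A1, which sets the pace of bile acid production, had 848, 838 and 489 CPM. Ribosomal proteins held 1.63% ± 0.0680 and nuclear genes of the respiratory chain 0.488% ± 0.0390. No row matched the list of mitochondrially encoded genes, so every share is a share of the other counts.

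The list of hepatocyte transcription factors and receptors held 0.650% ± 0.0491. TBX3, a T-box repressor known to act in liver development, led it at 2572, 2913 and 3384 CPM. GHR, the growth hormone receptor, had 1184, 1859 and 1175, and HNF4A, a central regulator of hepatocyte genes, had 342, 408 and 319. TBX3 stood at 4263 to 9765 CPM in the FA sets and at 203 to 4105 in the FK sets, so its high count was not limited to WT.

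**Figure D2:**
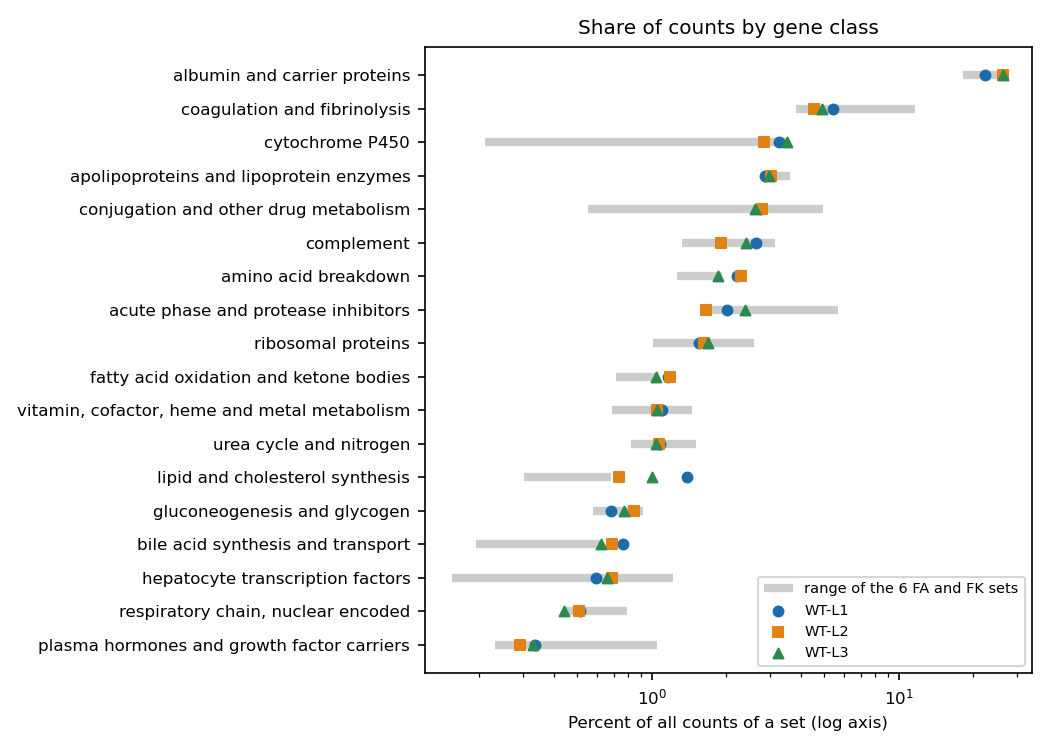
Percent of all counts of a set (log axis) held by 18 lists of genes. Symbols are the 3 wild-type sets and grey bars span the 6 FA and FK sets; only for lipid and cholesterol synthesis do all 3 wild-type sets lie outside the grey bar.

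Whether these shares are those of WT alone was asked by setting the 3 WT sets against the 6 FA and FK sets. Lipid and cholesterol synthesis was the only one of 18 lists whose WT and other sets did not overlap, at 0.739% to 1.39% in WT and 0.303% to 0.684% in the rest. Its exact two-sided permutation test over the 84 ways to choose 3 of 9 sets gave p = 0.0119, the smallest p that this design allows, and an adjusted p of 0.214. The exact test called 0 of the 18 lists at an adjusted p under 0.05 (0.0%), and 1 at an unadjusted p under 0.05. A list that is fully separated on its own cannot pass this adjustment. The 0 calls therefore do not answer whether the shares are those of WT alone. In secreted proteins and P450 genes the WT range was narrower: secreted proteins ran from 35.5% to 39.3% in WT and from 35.8% to 46.8% in FA and FK, and P450 genes from 2.86% to 3.53% in WT and from 0.212% to 3.61% in the rest. A range over 3 sets tends to be narrower than one over 6, and the lowest P450 shares were those of FK-L1 and FK-L2 (0.212% and 0.237%). These spreads are given as values and were not tested.

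Few genes of the liver lists were nearly silent. Of 516 symbols in the 16 lists other than ribosomal, respiratory chain and mitochondrial genes, 443 matched a row, and their median was 203 CPM. Of these rows 288 had a mean of at least 100 CPM, 123 lay between 10 and 100, 21 between 1 and 10, and 11 below 1 CPM, called nearly silent. That is 2.48% of the rows, beside 50.1% of all genes of the table. The remaining 73 symbols, among them CYP2E1, FASN, SCD, SERPINA1, CPT1A and GULO, matched no row by name and were not analysed here.

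SULT1E1, the estrogen sulfotransferase, and CYP2G1, a P450 known from the olfactory mucosa, had no count in the 191.8 M counts of the 12 libraries. A count of 0 allows up to 3 counts, or 0.0156 CPM, for counting error alone. SULT2B1, a sulfotransferase of cholesterol known from skin, and DAO, the D-amino acid oxidase, had 1 count each, and CHKA, a choline kinase, had 4. CHKA stayed at or below 0.113 CPM in the FA and FK sets too. The reads of a gene can fall in separate rows, as for IRS2 below, so a low row need not mean a silent gene. Of the hormones, EPO, FGF19 and FGF21 were also low. EPO, the red cell hormone that the liver makes before birth, had 5 counts, all in WT-L3. FGF19, a bile acid signal made mainly by the intestine, had 6 counts, and FGF21, a hormone released by the liver in fasting and stress, had 9, spread over 6 libraries. The organic ion carriers SLC22A3 and SLC22A7 had means of 0.110 and 0.213 CPM, and ME1, the malic enzyme that supplies NADPH to lipid synthesis, had 0.688, 0.489 and 0.890 CPM in WT-L1, WT-L2 and WT-L3.

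Of the 11 nearly silent genes, 3 reached 1 CPM in at least one FA or FK set. ME1 stood at 14.5 CPM in FA3-L, FGF21 at 4.67 in FK-L1 and EPO at 2.11 in FK-L2. Members just above the limit of 1 CPM included APOBR (1.27 CPM), SLC13A5 (1.53), FST (1.89) and AQP8 (1.99). SLC13A5, a carrier that brings citrate into hepatocytes, had 1.06, 0.775, 0.452 and 0.782 CPM in the 4 libraries of WT-L1, 3.30, 3.91, 3.47 and 3.63 in WT-L2 and 0.133, 0.268, 0.184 and 0.346 in WT-L3. The 3 sets do not overlap, and WT-L2 is highest. In FK-L1 SLC13A5 stood at 302 CPM.

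**Figure D3:**
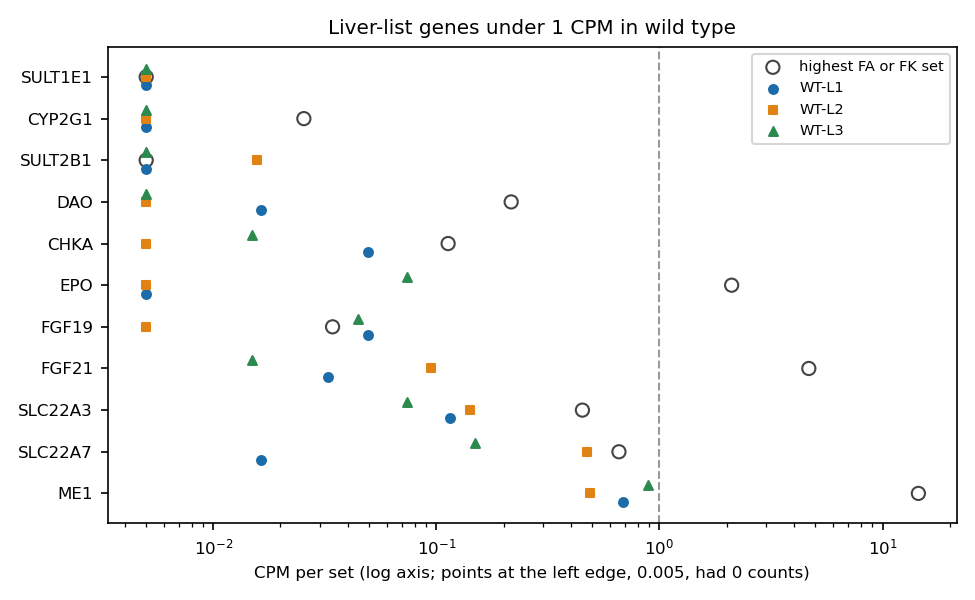
CPM per set (log axis) of the 11 liver-list genes with a mean under 1 CPM in wild type, with the limit as a dashed line. Filled symbols are the wild-type sets, open circles the highest FA or FK set, and points at the left edge had 0 counts; EPO, FGF21 and ME1 have an open circle to the right of the line.

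Markers of other cells were low beside the hepatocyte list, whose 7 measured genes summed to 198703, 242502 and 237108 CPM. Kupffer cell and macrophage markers summed to 661, 453 and 458 CPM, with C1QC, a chain of complement C1q, at 315, 217 and 223. Sinusoidal endothelium summed to 417, 340.3 and 399.9 CPM, with LYVE1 and OIT3 among its members, and stellate cells and fibroblasts to 313, 319 and 327. Bile duct markers summed to 15.3 to 19.96 CPM, T and NK cell markers to 7.97 to 12.6, and neutrophil markers to 17.0 to 27.2. JCHAIN, the chain that joins polymeric immunoglobulin, made up most of the 83.2 to 92.7 CPM of the B and plasma cell list. Muscle markers stayed at or below 0.473 CPM, fat markers at 3.47 to 7.05, and those of pancreas and gut at 8.10 to 13.6. Kidney and adrenal markers summed to 7.38, 11.3 and 5.92 CPM, of which CYP11A1 had 6.84, 10.3 and 5.08. INS, GCG, LEP and AQP2 had no count in WT. Erythroid markers summed to 639, 821 and 2227 CPM. In bulk samples a change in the number of cells of a type cannot be told from a change in RNA per cell.

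The WT sets differed from each other across much of the transcriptome. The comparison asks how far a wild-type baseline moves from set to set, measured against the spread of the 4 libraries within a set. edgeR's quasi-likelihood F test on 12704 genes called 8215 (64.7%) at a Benjamini-Hochberg adjusted p under 0.05, and 8699 passed at an unadjusted p under 0.05. With a largest fitted difference between sets of at least 1 on the log2 scale, 1533 genes (12.1%) were called, and below these are said to differ 2-fold. The median gene differed by 0.41 on that scale. The common biological coefficient of variation was 7.49% within sets and 30.5% between summed sets. Between pairs of sets, 5823 genes were called for WT-L1 and WT-L2 (45.8%), 5912 for WT-L1 and WT-L3 (46.5%) and 5489 for WT-L2 and WT-L3 (43.2%). No set stood out: of the 1533 genes, 485 were highest in WT-L1 (3.82% of those tested), 484 in WT-L2 (3.81%) and 564 in WT-L3 (4.44%), and 491, 531 and 511 were lowest there (3.86%, 4.18% and 4.02%). Leaving WT-L1, WT-L2 or WT-L3 out leaves 867, 791 or 712 genes that differ 2-fold between the other 2 sets. These p-values measure the spread between libraries of a set, which may be technical, and say nothing of rabbits in general.

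**Figure D4:**
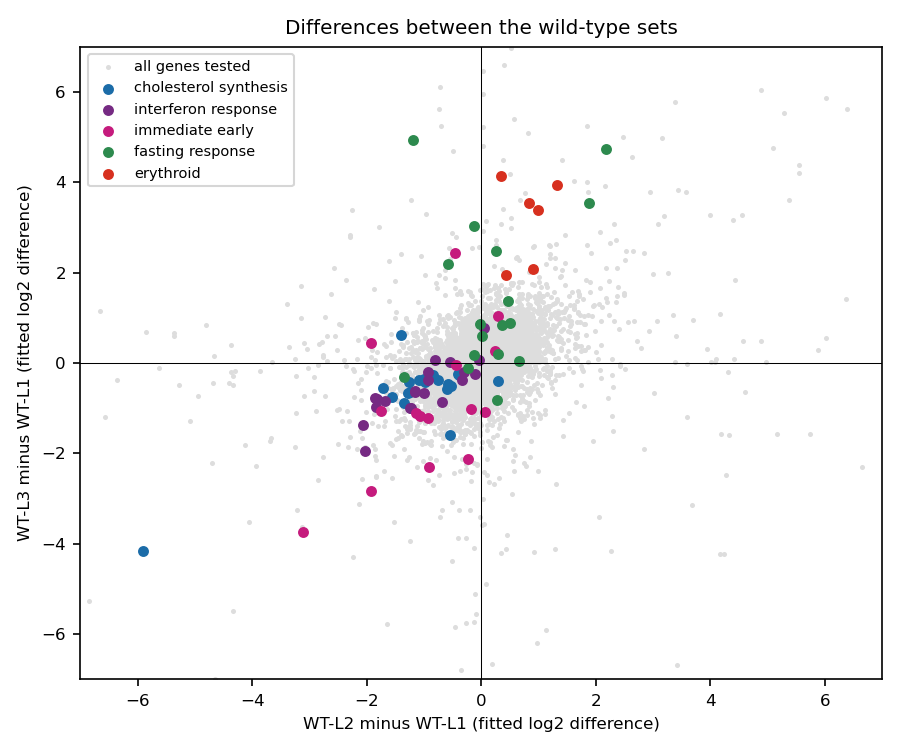
Fitted log2 differences of WT-L2 (horizontal) and WT-L3 (vertical) from WT-L1 for the 12704 genes tested, of which 49 lie beyond the axis limits of 7. Coloured points are members of 5 lists. Most interferon and cholesterol genes lie to the lower left, where WT-L1 is highest. Erythroid genes lie above the horizontal zero line, where WT-L3 exceeds WT-L1. Of these, SLC4A1, AHSP and EPB42 could pass the filter on low counts only through WT-L3 and were bound to lie there.

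Genes of cholesterol synthesis, which the transcription factor SREBP2 turns on when sterols are low, were mostly highest in WT-L1. Of 20 tested, 11 differed 2-fold (all genes: 12.1%), 10 of them highest in WT-L1 (all genes: 3.82%), and the median largest difference of the list was 1.05 log2 units. HMGCS1, an early enzyme of the pathway, stood at 2718, 3065, 3221 and 2632 CPM in the 4 libraries of WT-L1, at 944, 841, 997 and 947 in WT-L2 and at 1608, 1503, 1539 and 1484 in WT-L3. All libraries of WT-L1 were above the rest, and the fitted difference from WT-L2 was 1.55 on the log2 scale (SE 0.06, adjusted p = 3.4e-15, edgeR). INSIG1, which holds SREBP back when sterols are plentiful, was the exception, highest in WT-L3 at 1407, 498 and 1944 CPM. LSS, FDPS, SQLE, MVK, IDI1 and CYP51A1 all had WT-L1 highest and WT-L2 lowest. A list of feeding and lipogenesis genes that shares enzymes of lipid synthesis had 4 of 13 members that differed 2-fold, all highest in WT-L1 (all genes: 12.1% and 3.82%). Among them were ACLY (117, 39.9 and 72.1 CPM), ACACA (80.7, 36.2 and 46.7) and ELOVL6 (163, 75.2 and 144).

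Fasting genes were mostly highest in WT-L3. Of 17 tested, 9 differed 2-fold (all genes: 12.1%), 7 of them highest in WT-L3 (all genes: 4.44%), with a median largest difference of 1.09. PCK1, which commits carbon to glucose synthesis, had 22.7, 26.6, 22.7 and 23.3 CPM in the libraries of WT-L1, 94.3, 105, 104 and 101 in WT-L2 and 544, 527, 620.1 and 588 in WT-L3. The 3 sets are far apart, by 4.74 on the log2 scale between WT-L3 and WT-L1 (SE 0.07, 3-set adjusted p = 1.3e-22, edgeR). G6PC, which releases free glucose, had 49.9, 56.4 and 249.9 CPM in the sets. IGFBP1, an insulin-repressed carrier of growth factors, had 3.88, 4.65, 3.55 and 3.72 CPM in WT-L1, 1.84, 1.43, 1.37 and 1.84 in WT-L2 and 117, 120.2, 75.1 and 124 in WT-L3. WT-L3 exceeded WT-L2 by 6.13 (SE 0.17, 3-set adjusted p = 2.3e-19, edgeR). The lipase inhibitor ANGPTL4 had 2.02, 6.999 and 21.0 CPM, DDIT4 had 8.97, 5.68 and 36.8, and the tyrosine aminotransferase TAT had 304, 392 and 698. IRS2, the insulin receptor substrate, was read in separate rows of the table. Its symbol row had 0.639, 0.552 and 4.72 CPM, and the row to which RefSeq gives the same name had 2.10, 3.17 and 23.1. The members that did not follow were CIDEC, highest in WT-L2 at 6.18 CPM, and LPIN1, highest in WT-L1 at 88.9. PPP1R3B, which directs glycogen storage and is no member of that list, had 457, 582 and 126 CPM, lowest in WT-L3.

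Many interferon response genes were highest in WT-L1. Of 21 tested, 11 differed 2-fold (all genes: 12.1%), all with WT-L1 highest (all genes: 3.82%) and WT-L2 lowest, and the median largest difference was 1.01. ISG15, a ubiquitin-like modifier, stood at 29.2, 29.3, 21.4 and 29.9 CPM in WT-L1, 6.97, 6.21, 5.69 and 6.21 in WT-L2 and 8.76, 5.35, 4.97 and 6.47 in WT-L3. WT-L2 and WT-L3 overlap and WT-L1 lies above both. The antiviral GTPase MX1 had 183, 185, 187 and 195 CPM in WT-L1, 49.3, 50.6, 49.8 and 46.8 in WT-L2 and 93.9, 82.2, 81.8 and 85.1 in WT-L3. Its difference between WT-L1 and WT-L2 was 1.84 (SE 0.06, adjusted p = 7.1e-17, edgeR). RSAD2 had 10.8, 2.43 and 3.77 CPM, and IRF7 had 48.4, 12.5 and 25.2. Of 11 antigen presentation genes, 1 differed 2-fold (near the share of all genes), NLRC5, also highest in WT-L1. The Kupffer cell and macrophage markers summed highest in the same set, at 661 CPM beside 453 and 458, and their part in these values was not tested.

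Immediate early genes, which cells switch on within minutes of a stimulus and which tissue dissociation can also raise, differed in nearly every tested member. Of 15 tested, 13 differed 2-fold (all genes: 12.1%), with 9 highest in WT-L1 (all genes: 3.82%), 3 in WT-L3 and 1 in WT-L2. FOS had 14.8, 10.9, 9.49 and 8.74 CPM in WT-L1, 1.33, 1.06, 1.77 and 0.614 in WT-L2 and 0.863, 0.482, 0.797 and 0.808 in WT-L3. EGR1 had 85.4, 67.2, 66.3 and 68.1 CPM in WT-L1, 18.6, 17.5, 16.2 and 18.5 in WT-L2 and 10.4, 8.72, 8.09 and 9.12 in WT-L3. In both genes no WT-L1 library overlaps another set. MYC went the other way, at 2.79, 1.89 and 13.4 CPM in the sets, and DUSP1 had 21.8, 5.38 and 26.6. In FA and FK sets FOS stood at 7.41 to 17.6 CPM and EGR1 at 13.2 to 297. The labels give the trypsin step for all samples and no time for it, so handling and the sets cannot be told apart.

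Acute phase proteins did not move as one. Of 18 tested, 8 differed 2-fold (all genes: 12.1%), 3 highest in WT-L1, 2 in WT-L2 and 3 in WT-L3. ORM1, or orosomucoid, had 24.05, 4.60 and 153 CPM, a difference of 5.13 between WT-L3 and WT-L2 (SE 0.09, 3-set adjusted p = 7.4e-22, edgeR). CRP, a main acute phase protein of rabbits, had 3008, 2724 and 6337 CPM. LOC100009168, with the serum amyloid gene name SAA1 as a RefSeq synonym, had 261, 238, 237 and 249 CPM in WT-L1, 12.1, 12.1, 11.7 and 10.9 in WT-L2 and 198, 197, 184 and 197 in WT-L3. HAMP, the iron hormone hepcidin, had 383, 321 and 64.8 CPM, lowest in WT-L3, where ORM1 and CRP were highest. In FA and FK sets ORM1 ran from 11.2 to 5974 CPM and LOC100009168 from 13.6 to 5722, ranges that hold the values of WT-L1 and WT-L3 and lie above that of WT-L2.

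The red cell genes that could be tested were highest in WT-L3. All 6 tested erythroid markers of 9 in the table differed 2-fold (all genes: 12.1%), with WT-L3 highest (all genes: 4.44%) and WT-L1 lowest. Their median largest difference was 3.46. SLC4A1 (0.131, 0.158 and 2.20 CPM), AHSP (0.115, 0.221 and 1.14) and EPB42 (0.295, 0.504 and 3.18) were low in WT-L1 and WT-L2. They could pass the filter on low counts only through WT-L3, where they were thus bound to be highest. The count of 6 and the median include them and are no support for a shared pattern. HBB2, a beta globin, had 621, 497, 508 and 857 CPM in WT-L1, 702, 613, 798 and 1054 in WT-L2 and 1813, 2849, 2129 and 1738 in WT-L3. ALAS2, which starts heme synthesis in red cell precursors, had 14.5, 25.4 and 55.1 CPM. WT-L1 and WT-L2 overlap in HBB2, and WT-L3 lies above both. The 4 libraries of a set also spread widely in HBB2. The transcription factors of red cell precursors GATA1 and KLF1 stayed at or below 0.347 CPM in every set, and the embryonic globin HBZ had no count. Whether blood in the tissue bears on other genes that are highest in WT-L3 was not tested.

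**Figure D5:**
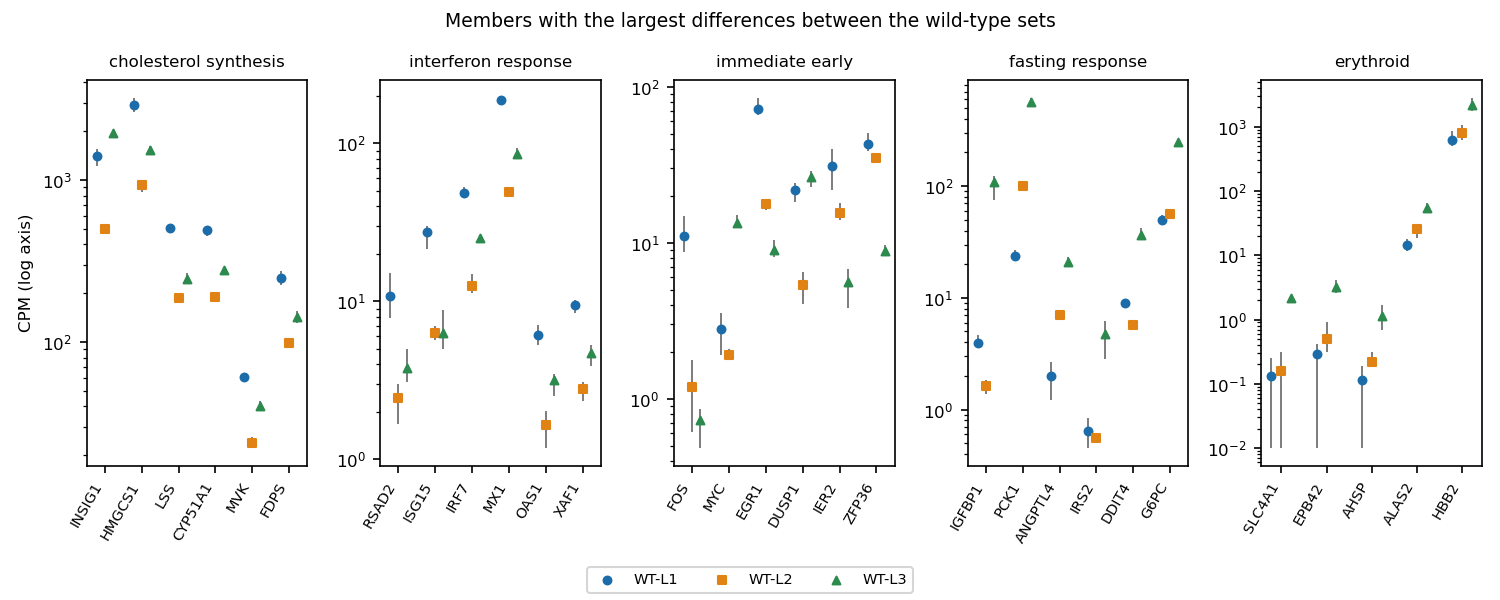
CPM (log axis) of up to 6 of the members with the largest differences in 5 lists. Symbols are the wild-type sets and bars span their 4 libraries, drawn down to 0.01 where a library had no count. HMGCS1, FOS and MX1 are highest in WT-L1, and PCK1 and IGFBP1 in WT-L3. Erythroid genes that could pass the filter on low counts only through WT-L3 were bound to be highest there.

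Cytochrome P450 genes held many that differed between sets. Of 28 P450 genes tested, 14 differed 2-fold (all genes: 12.1%), 6 highest in WT-L1, 4 in WT-L2 and 4 in WT-L3. CYP3A6 stood at 5149.5, 5161, 5356 and 5354 CPM in WT-L1 and 3354, 3259, 3044 and 3063 in WT-L2. In WT-L3 it stood at 12996, 13626, 13512 and 13397 CPM. The difference between WT-L3 and WT-L2 was 2.14 (SE 0.04, 3-set adjusted p = 1.1e-20, edgeR). LOC100328937 (CYP1A2 as another RefSeq name) had 7807, 7421, 7364 and 7243 CPM in WT-L1, 2959, 3365, 3072 and 3425 in WT-L2 and 2621, 2492, 2434 and 2557 in WT-L3. LOC100328613, with CYP1A1 as another name, had the same highest set, at 3785, 1687 and 1616 CPM. Both are known targets of the dioxin receptor AHR. CYP2B5 had 66.2, 32.4 and 9.81 CPM, and CYP2B4, of the same family, had 336, 185 and 137. CYP3A6 was thus highest in WT-L3, where LOC100328937, CYP2B4 and CYP2B5 were lowest. Among conjugating enzymes 5 of 34 differed 2-fold, close to the share of all genes. NAT1, an arylamine acetyltransferase, had 2.92, 129 and 54.4 CPM, and GSTM2, a glutathione transferase, had 622, 163 and 543.

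Fatty acid oxidation and ketone bodies had 0 of 35 at 2-fold or more by edgeR, although 30 of the 35 passed the adjusted p alone (all genes: 64.7%). Its median largest difference was 0.32, beside 0.41 for all genes. At 2-fold or more (all genes: 12.1%), the urea cycle list had 2 of 15, amino acid breakdown 6 of 51, bile acid genes 2 of 24 and clotting 1 of 26, the first 3 near the share of all genes. In amino acid breakdown BHMT, which remethylates homocysteine, had 622, 627, 591 and 633 CPM in WT-L1, 1836, 1999, 1857 and 2080.2 in WT-L2 and 394, 367, 402 and 405 in WT-L3. Among bile acid genes NR0B2, the repressor SHP, had 14.9, 20.6 and 2.97 CPM. The clotting list's one gene was FETUB, at 2171, 846 and 1586 CPM. Complement had 2 of 20, C3 and C8A, and hepatocyte markers 0 of 7. Of 18 clock genes 5 differed 2-fold (all genes: 12.1%) and all 5 were lowest in WT-L3 (all genes: 4.02%), among them BHLHE40 (46.9, 36.6 and 8.30 CPM) and NR1D1, or REV-ERB alpha (8.13, 5.50 and 2.58). Of 22 genes of lobule zonation 21 passed the adjusted p (all genes: 64.7%) and 6 differed 2-fold (all genes: 12.1%), with AXIN2, a target of Wnt signalling near the central vein, at 6.85, 2.96 and 1.23 CPM. Of 11 heat shock genes 1 differed 2-fold, HSPA8, at 598.5, 1339 and 958 CPM.

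Most cell division genes were low. Of 14 tested, 3 differed 2-fold (all genes: 12.1%), and TOP2A and MCM2 stood at or below 3.68 CPM in every set. Without the first library of WT-L2 the difference of MCM2 drops from 1.10 to 0.86 log2 units and is no longer 2-fold. AURKA, a mitotic kinase, had 73.7, 68.9, 72.6 and 69.2 CPM in WT-L1, 76.6, 76.6, 78.0 and 81.5 in WT-L2 and 26.0, 26.2, 25.1 and 27.7 in WT-L3, while PCNA, the next highest of the list, had 14.4, 16.5 and 16.3. AFP, alpha-fetoprotein, which the liver makes before birth, had 1.02, 4.00 and 2.27 CPM in WT and 67.5 to 2966 CPM in the FA and FK sets.

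The genes with the largest differences between sets, among those with a symbol and at least 10 CPM in the highest set, included some that were nearly absent from 1 or 2 sets. H3-3A, a histone H3.3 gene, had 58.9, 56.0, 58.1 and 58.3 CPM in WT-L2, a single WT-L1 library at 0.188 and a single WT-L3 library at 0.161, and no count in the other 6. It stood at 0.0636 to 0.207 CPM in the FA and FK sets. UGT2B14, a glucuronosyltransferase, had 12.1, 11.6, 10.3 and 11.9 CPM in WT-L1, 22.2, 23.2, 25.1 and 23.8 in WT-L2 and 0.0663, 0.214, 0 and 0.346 in WT-L3. Its largest difference, between WT-L2 and WT-L3, was 7.04 (SE 0.21, 3-set adjusted p = 1.1e-16, edgeR). RPL39, a protein of the large ribosomal subunit, had 68.1, 0.662 and 26.8 CPM in the sets, and RPL34 had 14.7, 50.1 and 181. H3.3 and ribosomal proteins have many near-identical copies in mammalian genomes, among which estimated counts divide reads, so their values are uncertain. Of 67 ribosomal protein genes 11 differed 2-fold, a share close to the 12.1% of all genes, and the summed share of the list ran from 1.56% to 1.69%.

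Other genes of this kind were near 0 in at least one set, or low in one and higher in another. PTGER3, a receptor of prostaglandin E2, had 13.3, 14.3, 15.2 and 16.6 CPM in WT-L3 and at most 0.323 in any library of WT-L1 and WT-L2. SCG5, a chaperone of neuroendocrine cells, had 27.2, 23.1, 24.7 and 24.1 CPM in WT-L2 and at most 0.995 elsewhere, and ACTL6B, a neuronal subunit of chromatin remodelling complexes, had 2.21, 10.03 and 0.104 CPM in the sets. The carboxypeptidase CPE had 10.97, 7.49 and 0.163 CPM. LYZ, or lysozyme, read from the row to which RefSeq gives that name, had 29.1, 21.8, 24.2 and 32.1 CPM in WT-L1, 0.444, 0.621, 0.262 and 0.369 in WT-L2 and 39.4, 42.1, 32.2 and 40.5 in WT-L3. It is a macrophage marker. Of the 8 tested markers of Kupffer cells and macrophages 3 differed 2-fold (all genes: 12.1%), LYZ, CD68 (50.8, 53.0 and 20.5 CPM) and MARCO (68.1, 39.9 and 23.4), each with another set highest. CSF1R (87.1, 62.3 and 67.8), VSIG4 (58.5, 41.1 and 46.1) and TIMD4 (44.9, 34.3 and 33.6) were among those that did not. The part of these cells in the LYZ values was not tested. SERPINF1, which makes the secreted factor PEDF, had 80.1, 56.7 and 4.85 CPM. PGER6 had 11.2, 493 and 185, DEPP1, a target of FOXO factors, had 7.10, 24.01 and 242, and RCAN2, an inhibitor of calcineurin, had 11.998, 1.09 and 13.8. ANO1 and ANO7, members of one family of membrane proteins, moved side by side, at 27.3, 1.26 and 19.9 CPM and at 44.8, 2.08 and 28.5. IFGGA1 had 2.20, 0.426 and 20.6 and IRGM, an immunity-related GTPase, 3.85, 0.694 and 12.4, both highest in WT-L3, unlike the interferon list. Other genes named by this rule, IGFBP1, NAT1, ORM1, PCK1, FOS and IRS2, are described above.

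Across all 1533 genes that differed 2-fold, 462 did so by 4-fold or more and 255 by 8-fold or more. At least 10 CPM in the highest set was reached by 566, and 517 carry only a LOC number. The TMM factors of the WT sets lay between 0.919 and 1.02. Of 14 X- and Y-linked symbols, 4 matched a row. Of these 4, 0 differed 2-fold by edgeR (all genes: 12.1%) and 3 passed the adjusted p alone (all genes: 64.7%). So few genes cannot tell whether the sets were alike in sex.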

How the data were processed

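RNA of 36 rabbit liver samples was sequenced. The authors deposited 1 table of estimated counts per gene, whole numbers as deposited and of different totals per library. Salmon 0.14.1 is listed, per the submitters' processing notes. The genome build, annotation, strand setting and role of that tool were not given in the sources used here, so overlapping antisense genes are uncertain. Every row names a gene.

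The 12 libraries titled WT were grouped by title into 3 sets of 4 and summed. CPM scales each total to 1000000. Gene names came from the table and, for LOC rows, from RefSeq (mOryCun1.1); 814 of 963 list symbols matched a row, 41 by RefSeq symbol, 7 by RefSeq synonym and 8 by an older symbol. The members, gene lists and rules were chosen with earlier results of these data known. Lists describe classes, other cell types and states, and a gene can be in several.

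Sets were compared with edgeR 4.0.16 (R 4.3.3): filterByExpr by set, TMM, glmQLFit, an F test over the 3 sets against the spread of libraries (9 residual and 12.04 prior degrees of freedom) and Benjamini-Hochberg adjustment over all 12704 genes. The fit was also run on counts simulated with the dispersions it had estimated from these libraries. Such a run cannot show whether the libraries of a set are valid replicates. Standard errors belong to the largest fitted difference, and the adjusted p-values printed beside them to the F test over the 3 sets. Shares of counts were compared between 3 WT and 6 other sets by exact permutation. A mean under 1 CPM was called nearly silent.

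Named genes were the 20 highest by mean CPM (those per coding length were not run), the top 3 of each class list, each nearly silent gene, the 24 genes with a symbol, at least 10 CPM in the highest set and the largest 2-fold differences, up to 3 members of each state list by the size of the difference, ALB and FAH. All others were chosen after their values were seen. Some genes that these rules name are not reported here.

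Libraries of a set varied beyond sampling noise (median chi-square per degree of freedom 1.58 to 1.94), so none was counted as a repeat of another. Library numbers were shared between sets, but the deviations of same-numbered libraries from their set means had a median correlation of 0.0066 (12 pairs), so the numbers were not taken to pair them. Alternatives were RLE factors, other filters on low counts, DESeq2 1.42.0, limma-voom (limma 3.58.1), the library number as a block, all 36 libraries in the fit, other silence thresholds, shares without albumin, TMM-scaled CPM, and leaving out each library or set. Figures were drawn with matplotlib 3.10.9.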

Additional observations from a re-analysis of the deposited data

Results flagged for a closer look

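Within the sets of 4 libraries, 9 values stood far from the other 3 by Dixon's test at its 95% critical value, out of 132 groups of 4 values tested (44 values in each of 3 sets). Chance alone marks about 1 in 20 such groups. In WT-L3, library 3 had 75.1 CPM of IGFBP1 beside 117 to 124 in the others, and its share of plasma hormones and growth factor carriers, the list that holds IGFBP1, was 0.307% beside 0.336% to 0.339%. In WT-L1, library 2 had 26.6 CPM of PCK1 beside 22.7 to 23.3. In WT-L2, library 1 had 66.2 CPM of SERPINF1 beside 52.7 to 54.6. H3-3A had counts in 1 library each of WT-L1 (library 1, 0.188 CPM) and WT-L3 (library 2, 0.161 CPM) and none in the other 3. A single count beside 3 zeros is always marked by this test, so the H3-3A marks carry no information. Amino acid breakdown held 2.26% of the counts in library 1 of WT-L1 beside 2.18% to 2.19%. Hepatocyte transcription factors held 0.646% in library 2 of WT-L3 beside 0.664% to 0.666%, and vitamin, cofactor, heme and metal metabolism held 1.05% in library 1 of WT-L3 (1.054% beside 1.045% to 1.046%). No library was marked in more than 2 of these values, and without overlap WT-L3 stayed highest in IGFBP1, WT-L1 lowest in PCK1 and WT-L2 between the others in SERPINF1.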

How the results depend on the processing

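The count of genes that differ 2-fold was within 1.5 times of 1533 under every alternative except leaving out a set, which gave 867 (WT-L1), 791 (WT-L2) and 712 (WT-L3), with 1 contrast in place of 3. It was 1505 with DESeq2, 1537 with limma-voom, 1308 and 2122 with a stricter and no filter, and 1542 to 1606 leaving out 1 library. Taking the library number as a replicate block gave 1544 genes at 2-fold or more and 8277 called in all, and 3 of 12 libraries correlated best with their own number. Separately, the lists were tested with sets permuted only within the number in the set title, and 0 of 18 were called. That test has fewer arrangements than the unrestricted one, in which a list separated on its own already cannot pass. Its 0 calls therefore do not show that the result is robust. Secreted classes held 22.8% of the counts when albumin was left out of both the sum and the total. Nearly silent genes numbered 10 at a limit of 0.5 CPM and 16 at 2 CPM. Among results for single genes and classes, 1388 were within their limits, 21 class shares moved by more than their SD, and MCM2 lost its 2-fold call. Values per coding length were not run, since lengths were not used here. Counts under about 3 per 12 libraries cannot be told from 0, and 3 sets cannot give a range for rabbits in general.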
